A study of Homo sapiens with 6 samples.

Results

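The genes of the nuclear cap-binding complex and its closest partners were followed in SW480 cells that express a truncated form of ZC3H18. The members were NCBP1, NCBP2, NCBP3, SRRT and PHAX, taken by name from the deposited gene tables, which made 5 of 28307 gene symbols. All 5 lay among the 13300 genes with a mean abundance of at least 1 TPM (transcripts per 1000000, a unit scaled for transcript length and library size), the level from which genes were tested. Abundance was the deposited TPM, summed by gene symbol in each library.

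SW480 is an established human colon adenocarcinoma line. In 3 libraries the cells carried pLENTI CMV Clover, a lentivirus from which the CMV promoter drives the fluorescent protein Clover (control). In 3 libraries they carried pLENTI CMV Z18trunc, from which the same promoter drives truncated ZC3H18 (Z18 in the study's shorthand). Both groups thus share lentiviral transduction, antibiotic selection and the endogenous ZC3H18 gene, and the study describes the lines as made in biological triplicate. RNA was selected for poly(A) tails and sequenced as stranded pairs, so that RNAs without a tail, among them most mature small nuclear RNAs, are outside the measurement. The truncated protein was not measured in these files and stands here only as RNA.

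RNA polymerase II transcripts receive a 7-methylguanosine cap soon after transcription begins. In the nucleus the cap is held by a heterodimer of NCBP2 (CBP20), which contacts the cap itself, and NCBP1 (CBP80), the larger subunit that keeps NCBP2 in its cap-binding form and offers a surface to other factors. SRRT (ARS2) binds this heterodimer and passes the transcript either to PHAX, the adaptor that takes capped small nuclear RNAs to the exportin XPO1, or to ZC3H18, which joins the complex to the nuclear exosome and its adaptors NEXT and PAXT. NCBP3 is a further cap-associated protein that has been linked to messenger RNA export.

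In hg38, NCBP1 lies on chromosome 9 (97633423 to 97673747, plus strand) and NCBP2 on chromosome 3 (196935402 to 196942593, minus strand). NCBP3 lies on chromosome 17 (3802158 to 3846246, minus strand), SRRT on chromosome 7 (100875103 to 100888664, plus strand) and PHAX on chromosome 5 (126600947 to 126627252, plus strand). The 5 genes thus sit on 5 chromosomes and share no neighbours. Their upstream sequences are shown because the members are read here as a group, and because they let the letters shared by their promoters be seen. They are the 250 bases before the RefSeq start site (GRCh38.p14), read 5′ to 3′ on the gene's strand, with motif matches on either strand in capitals. NCBP1 had no entry in the promoter table.

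NCBP2: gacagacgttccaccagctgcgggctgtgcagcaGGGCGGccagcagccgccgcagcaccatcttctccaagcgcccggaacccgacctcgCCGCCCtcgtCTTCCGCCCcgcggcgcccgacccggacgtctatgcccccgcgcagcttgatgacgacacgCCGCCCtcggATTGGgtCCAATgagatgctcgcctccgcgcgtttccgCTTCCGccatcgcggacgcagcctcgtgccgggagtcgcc
NCBP3: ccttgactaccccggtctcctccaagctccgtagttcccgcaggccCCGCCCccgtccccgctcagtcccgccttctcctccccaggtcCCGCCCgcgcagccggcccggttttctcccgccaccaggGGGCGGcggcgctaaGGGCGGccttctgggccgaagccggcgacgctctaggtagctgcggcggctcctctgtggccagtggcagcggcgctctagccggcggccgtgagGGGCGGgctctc
SRRT: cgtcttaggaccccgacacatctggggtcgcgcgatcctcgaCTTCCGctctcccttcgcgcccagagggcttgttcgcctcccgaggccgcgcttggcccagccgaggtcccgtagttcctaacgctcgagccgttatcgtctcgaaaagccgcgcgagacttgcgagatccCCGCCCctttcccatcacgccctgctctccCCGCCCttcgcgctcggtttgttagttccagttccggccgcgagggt
PHAX: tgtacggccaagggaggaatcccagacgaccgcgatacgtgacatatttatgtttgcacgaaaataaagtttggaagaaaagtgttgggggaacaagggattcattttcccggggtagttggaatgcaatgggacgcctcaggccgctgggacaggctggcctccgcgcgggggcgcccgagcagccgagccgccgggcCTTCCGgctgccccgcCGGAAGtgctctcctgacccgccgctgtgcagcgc

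These windows are chr3:196942529-196942778 (minus strand), chr17:3846247-3846496 (minus strand), chr7:100874853-100875102 (plus strand) and chr5:126600697-126600946 (plus strand). The NCBP2 window reaches into the gene span of the deposited tables, which begins further upstream than the RefSeq entry. The motifs searched on both strands were the CCAAT box (CCAAT), the ETS core (spelled CGGAAG), the GC box (spelled GGGCGG), the E-box (spelled CACGTG), the TATA box (spelled TATAAA) and the CRE (spelled TGACGTCA). Matches that overlap run together in capitals, as an ETS core and a GC box do upstream of NCBP2. The windows held 71.6%, 74.8%, 66.0% and 62.0% G and C, against a median of 58.0% over 35116 promoters. GC boxes were found 4 times upstream of NCBP2, 5 times upstream of NCBP3 and 2 times upstream of SRRT, and 42.6% of all promoters hold at least 1. The PHAX window held none, but it held 2 ETS cores, as did NCBP2, whereas SRRT held 1 and NCBP3 none (16.5% of all promoters). NCBP2 alone of the 4 held the CCAAT box, in 2 places (32.0% of all promoters). None held the E-box, the TATA box or the CRE, which occur in 6.34%, 10.7% and 1.65% of promoters. A match describes letters in this window and no more.

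Libraries held between 18226033 and 22463310 aligned fragments, and reads covered the members at 19.1 (NCBP3) to 417 (SRRT) reads per base, so none was near the limit of detection. ZC3H18, the perturbed gene, went from 57.2 ± 5.39 to 763 ± 31.2 TPM (SD, n = 3 each) and was far higher in every library labelled Z18trunc, and the table does not separate the transgene from the endogenous gene. Of 8 colon epithelial markers, 7 were at 1 TPM or more in every library, while CDX1 was listed at 0. Their summed level, most of it KRT8 and KRT18, was 23322 to 24914 TPM in Clover and 22872 to 23985 TPM in Z18trunc. EPCAM (289 to 375 TPM) was higher in every Z18trunc library than in every Clover library, as were 30.1% of all genes. The other epithelial markers overlapped. Of 9 markers of immune, fibroblast, endothelial and melanocyte cells, 6 stayed below 1 TPM in every library. Among these, PTPRC, PECAM1 and MLANA were listed at 0. The other 3, CD68, PMEL and COL1A1, were above 1 TPM in every library, from 1.14 TPM (COL1A1) to 4.48 TPM (CD68). The sums of the 9 markers, 6.82 to 7.94 TPM in Clover and 6.48 to 9.49 TPM in Z18trunc, overlapped. In bulk RNA, a change in the number of cells of a type and a change in RNA per cell cannot be told apart.

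The members were expressed over a wide range of levels, with one order in every library. From the highest, SRRT was followed by NCBP2, NCBP1, PHAX and NCBP3 in 6 of 6 libraries. SRRT lay 2.12 to 3.06 times above NCBP2 in TPM of the same library, and NCBP2 lay 2.09 to 2.33 times above NCBP1, its partner in the heterodimer. NCBP1 was 1.67 to 2.04 times above PHAX, and PHAX was 1.40 to 2.01 times above NCBP3. Across the 6 libraries the TPM ranges of the 5 members were separate. By mean TPM, SRRT ranked 1023 among the 13300 genes, whereas NCBP3 ranked 7875.

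To ask whether the complex's own RNAs differ when truncated ZC3H18 is present, each member was compared between the groups with limma on log2(TPM + 1), with p-values adjusted over all 13300 genes. None of the 5 passed an adjusted p of 0.05, a threshold that 0.015% of all genes passed. NCBP1, NCBP2, NCBP3 and PHAX were higher in all 3 Z18trunc libraries than in all 3 Clover libraries, and SRRT overlapped. That is 4 of 5 members, but 30.1% of all genes were higher without overlap, against 6.73% lower. By an unadjusted limma p under 0.05, 4 of 5 members were higher, beside 25.6% of all genes higher and 2.9% lower. The median log2 change was 0.33 over the members and 0.11 over all genes, and the members' median was 0.26 after quantile normalization and 0.07 with a trend on transcript GC content removed.

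Of the heterodimer, NCBP2 measured 59.9, 56.3 and 60.2 TPM in Clover and 67.7, 75.8 and 79.8 TPM in Z18trunc. Every Z18trunc value thus lay above the Clover values, with replicate 1 the nearest to them. The means were 58.8 ± 2.16 and 74.4 ± 6.16 TPM (SD, n = 3 each). On the log2 scale NCBP2 was 0.33 higher (SE 0.09, limma adjusted p = 0.0835). NCBP1 measured 28.7, 24.1 and 26.9 TPM in Clover and 32.4, 33.9 and 38.1 TPM in Z18trunc. The groups did not overlap here either, and the Clover libraries spread by more than those of NCBP2 relative to their mean. NCBP1 averaged 26.6 ± 2.29 and 34.8 ± 2.95 TPM (SD, n = 3 each), or 0.38 higher on the log2 scale (SE 0.10, 95% interval 0.14 to 0.61, limma adjusted p = 0.0841).

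SRRT, the hub that joins the cap to the export and decay branches, measured 163, 173 and 164 TPM in Clover and 164, 181 and 169 TPM in Z18trunc. The ranges of the groups overlapped over most of their length. Its log2 change of 0.04 (SE 0.07, limma adjusted p = 0.759) had a 95% interval of -0.14 to 0.21. Leaving out Z18trunc replicate 2, the highest library, put it at -0.0015.

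PHAX, on the export branch, measured 14.1, 14.0 and 14.1 TPM in Clover and 19.0, 18.4 and 22.8 TPM in Z18trunc. The Clover libraries were nearly equal, and every Z18trunc library was higher, with replicate 3 the highest. The means were 14.1 ± 0.05 and 20.1 ± 2.39 TPM (SD, n = 3 each), a ratio of 1.42. The log2 difference was 0.48 (SE 0.09, limma adjusted p = 0.0773, 95% interval 0.25 to 0.70). Of all genes, 5.42% had a larger log2 change. Among genes with a mean of at least 5 TPM, where 4.54% were called higher and 0.211% lower, PHAX passed with a limma adjusted p of 0.0486.

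NCBP3, the least abundant member, measured 10.1, 8.17 and 10.0 TPM in Clover and 11.03, 11.2 and 11.4 TPM in Z18trunc. Clover replicate 2 lay apart on the low side, and the Z18trunc libraries were close together. NCBP3 was 0.24 higher on the log2 scale (SE 0.09, limma adjusted p = 0.158), and 0.15 higher without Clover replicate 2.

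**Figure D1:**
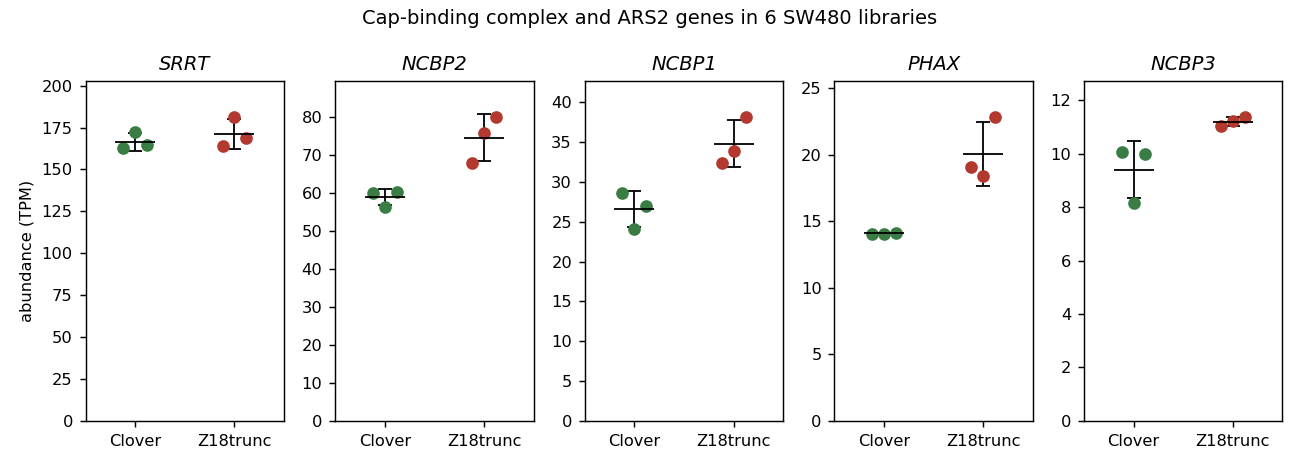
Abundance of each member in TPM (y axis, from 0, scaled per gene) in the 3 Clover and 3 Z18trunc libraries. Points are libraries, and bars give the mean and SD. The Z18trunc points lie above all Clover points for NCBP2, NCBP1, PHAX and NCBP3, and they overlap for SRRT.

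The size of these differences depended on how libraries were scaled. Quantile normalization, which gives every library the same distribution of values, moved the median of all genes from 0.11 to -0.01 on the log2 scale. NCBP1 was then 0.26 higher, NCBP2 0.26 and PHAX 0.32, and these 3 members still did not overlap between groups, beside 16.8% of all genes higher and 16.2% lower. NCBP3 was 0.05 higher with overlap, and SRRT 0.04. With unadjusted limma p-values under 0.05, 12.8% of all genes were then higher and 10.9% lower, and no member passed the adjustment (limma adjusted p from 0.136 to 0.705).

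The log2 change also moved with the base composition of transcripts across all genes. GC content was computed for the canonical GENCODE 44 transcript of 12820 genes (96.4% of those tested), which were divided into 5 bins of 2564 genes. From the bin with the lowest GC content to that with the highest, the median log2 change was 0.31, 0.25, 0.11, 0.0044 and -0.05. SRRT, with the highest GC content of the members, had the smallest change, and the 3 members with the lowest GC content had the 3 largest changes. NCBP1, NCBP2 and PHAX are AU-rich, with 40.3%, 40.8% and 41.9% GC, NCBP3 has 47.3% and SRRT 58.3%. Within its own bin, NCBP1 was exceeded by 30.1% of genes, NCBP2 by 41.5%, NCBP3 by 26.2% and SRRT by 39.7%. PHAX stood highest relative to its bin, 0.23 above the median, with 9.05% of that bin's genes above it.

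Transcript length went with the log2 change too. In 5 bins from the shortest to the longest canonical transcripts, the median was -0.02, 0.03, 0.09, 0.19 and 0.26. Placed by length (2101 nt for NCBP2, 2990 nt for SRRT, 3609 nt for PHAX, 4983 nt for NCBP1 and 12772 nt for NCBP3), the members stood differently within their bins. PHAX was exceeded by 3.04% of its length bin, NCBP2 by 7.57% and NCBP1 by 17.9%, whereas SRRT was exceeded by 59.4% and NCBP3 by 54.6%, both below their bin's median. The part of transcript length in the members' differences was not tested.

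**Figure D2:**
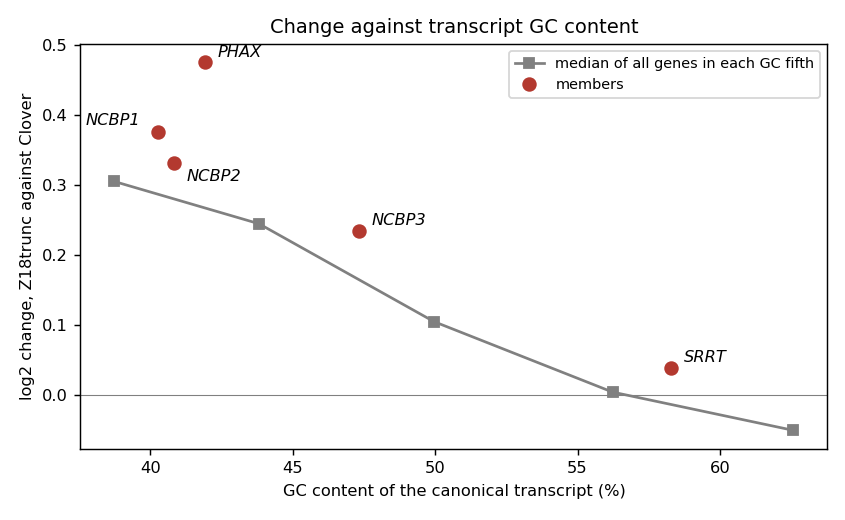
Log2 change of Z18trunc against Clover (y axis) against the GC content of the canonical transcript in percent (x axis). Grey squares are the medians of all genes in each of 5 bins of GC content, falling from 0.31 to -0.05, and red points are the 5 members, with PHAX farthest above the line.

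A smooth trend on GC content was then removed from each library, an alternative chosen after the data were seen. The log2 change became 0.09 for NCBP1, 0.05 for NCBP2, 0.07 for NCBP3, 0.05 for SRRT and 0.20 for PHAX. The intervals of NCBP1, NCBP2, NCBP3 and SRRT then included 0, and that of PHAX ran from 0.01 to 0.40 (limma adjusted p = 0.303). NCBP1, NCBP3 and PHAX were still higher in every Z18trunc library than in every Clover library, beside 12.1% of all genes. After this step 7.91% of genes were higher and 8.08% lower by an unadjusted limma p under 0.05, and 0.0156% passed the adjustment. The trend with transcript length remained after this step. From the shortest to the longest length bin, the median of all genes was -0.09, -0.04, -0.00062, 0.04 and 0.07. What part GC content has in the members' differences was not tested.

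**Figure D3:**
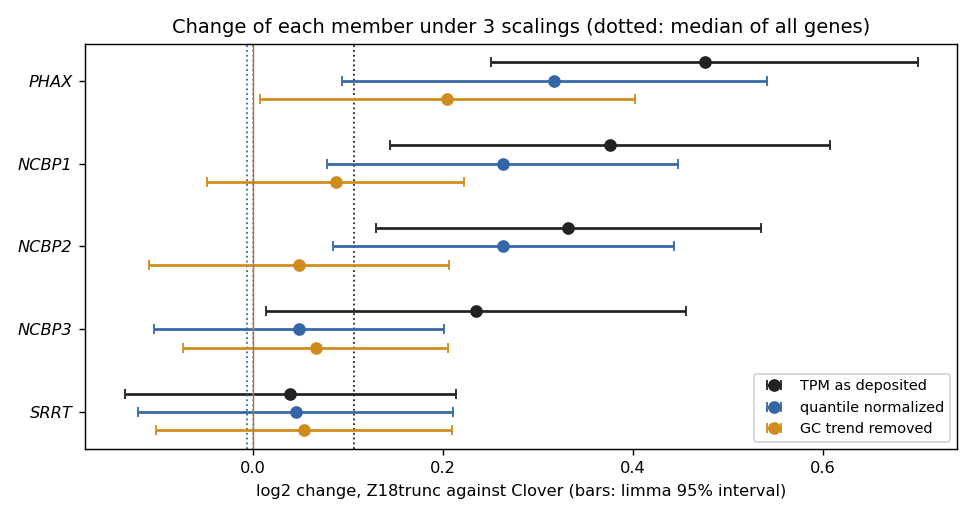
Log2 change of each member (x axis) with its 95% limma interval for TPM as deposited, after quantile normalization and with the GC trend removed. Dotted lines mark the median of all genes under each scaling. PHAX has the largest value under all 3, and SRRT stays between 0.04 and 0.05.

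A ratio of 2 members within one library does not move with the scaling of that library, so the balance between members was compared over the 10 pairs. The ratio of the heterodimer's subunits, NCBP1 over NCBP2, was 0.429 to 0.479 in Clover and 0.447 to 0.479 in Z18trunc. The log2 ratio was -1.15 ± 0.08 and -1.10 ± 0.06 (SD, n = 3 each), and the difference of 0.05 was smaller than the spread (exact permutation p = 0.6). All 4 pairs without overlap were the 4 pairs that include SRRT. NCBP2 over SRRT ranged from 0.326 to 0.369 in Clover and from 0.414 to 0.473 in Z18trunc. NCBP1 over SRRT ranged from 0.140 to 0.176 in Clover and from 0.187 to 0.226 in Z18trunc. SRRT over PHAX was 11.6 to 12.3 in Clover and 7.41 to 9.86 in Z18trunc.

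On the log2 scale NCBP1, NCBP2 and NCBP3 over SRRT were 0.35, 0.30 and 0.22 higher in Z18trunc, and SRRT over PHAX was lower by a difference of -0.46. The difference for NCBP3 over SRRT was 0.095 without Clover replicate 2. Each of the 4 had an exact two-sided permutation p of 0.1, the smallest that 3 against 3 libraries allow, and 0.25 when adjusted over the 10 pairs. Of 13237 genes above 0 in every library, 20.3% were higher relative to SRRT without overlap and 9.04% lower. With the GC trend removed, all 10 pairs overlapped, the 4 pairs with SRRT were at 0.03, -0.0052, 0.01 and -0.15, and NCBP2 over NCBP3 turned from 0.08 to -0.018.

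**Figure D4:**
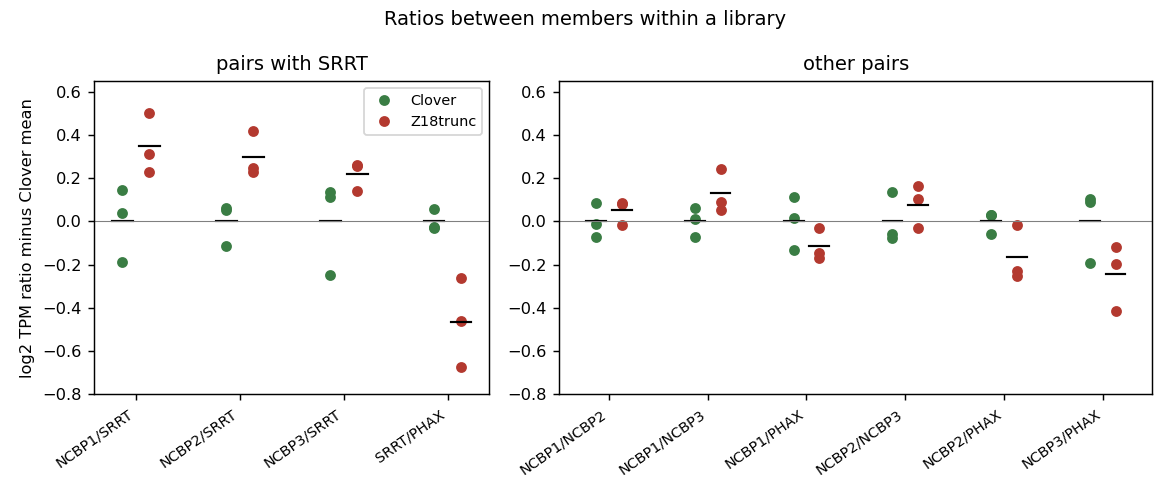
Log2 ratio of TPM between 2 members in each library, minus the mean of the Clover libraries (y axis), for the 4 pairs with SRRT and the 6 other pairs. Points are libraries and black bars are group means. The groups are separate for every pair with SRRT and overlap for all others.

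Likeness of profiles was described by the Euclidean distance between centred log2(TPM + 1) values over the 6 libraries, a small number of points that share the 2 groups. NCBP1 and NCBP2 were 0.145 apart, and 2.52% of genes lay nearer to NCBP1 than NCBP2 did, and 1.65% nearer to NCBP2 than NCBP1 did. SRRT and PHAX were the least alike members at 0.608. The nearest genes to NCBP1 were UBXN7, LRRFIP1 and VMP1 (distances 0.039 to 0.053), and those to NCBP2 were NIPSNAP2, ATP6V1C1 and ZFHX3 (0.044 to 0.062). For NCBP3 they were CRKL, TMEM170A and TFIP11 (0.042 to 0.050), for SRRT ITPKC, CENPV and NPRL3 (0.030 to 0.035), and for PHAX CDS1, CEBPG and OSBPL9 (0.070 to 0.080).

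Reads on a neighbour could add to a member's value, so overlapping genes were looked up. NCBP2-AS1, on the opposite strand of NCBP2, was the 1 gene of the tables whose span overlaps a member, and it stood at 0.334 to 0.721 TPM. NCBP2AS2, which lies outside the NCBP2 span, went from 80.6 ± 0.408 to 98.2 ± 5.61 TPM (SD, n = 3 each), a log2 change of 0.28 (limma adjusted p = 0.0835). NCBP2L, an NCBP2 paralogue, was listed at 0 in every library.

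Transposable element (TE) copies inside the members were counted per locus, from the same libraries as the gene values. Fragments on copies in exons can also enter a member's TPM, so these counts are not independent of the gene values. The 5 spans held 173 combinations of locus and strand with at least 1 count, and 14 loci on their own strand reached 30 counts. Of these 14, 13 lay in 3′ UTR exons and 1, an AluSx1, in an intron of NCBP3. No locus passed an edgeR adjusted p of 0.05, beside 0.201% of 12453 loci, nor did any with DESeq2, and 2 had an unadjusted edgeR p under 0.05, both of them higher (8.17% of all loci were higher by that rule). The median log2 change was 0.20 over these 14 loci and 0.17 over all loci.

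Both loci lie in the 3′ UTR of PHAX. The AluSc at chr5:126626458-126626761 (plus strand) had 20, 24 and 20.4 estimated counts in Clover and 47.0, 24 and 43 in Z18trunc. Z18trunc replicate 2 had the same count as Clover replicate 2, from a smaller library, and the other Z18trunc libraries were higher. As counts per 1000000 aligned fragments (CPM) the means were 1.06 ± 0.183 and 1.82 ± 0.436 (SD, n = 3 each), and the log2 change was 0.80 (edgeR adjusted p = 0.306). The AluSz at chr5:126625315-126625611 had a log2 change of 0.64 with overlap (edgeR adjusted p = 0.404), and the FLAM_C at chr5:126626099-126626233 one of 0.62 (edgeR adjusted p = 0.522). The other two tested copies of the same UTR, AluSz at chr5:126626317-126626457 and chr5:126626762-126626915, had log2 changes of 0.04 and -0.08 and are named after their values were seen.

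Summed over all TE copies in its exons, PHAX averaged 6.82 ± 0.76 CPM in Clover and 9.30 ± 1.59 CPM in Z18trunc (SD, n = 3 each). The groups overlapped, as Z18trunc replicate 2 (7.52 CPM) lay below Clover replicate 2 (7.68 CPM) (exact permutation p = 0.2). The exonic sum of NCBP3 was 10.6 ± 0.741 CPM in Clover and 12.4 ± 0.479 CPM in Z18trunc (SD, n = 3 each), the 1 sum of 14 without overlap (exact permutation p = 0.1, adjusted over the 14 sums 0.7). NCBP1 and NCBP2 had exonic sums of 4.86 and 4.58 CPM in Clover and 5.61 and 5.13 CPM in Z18trunc, with overlap. SRRT held TE copies with counts in introns alone, where the sum was 1.003 CPM in Clover and 0.699 CPM in Z18trunc (exact permutation p = 0.4). Intronic sums on the gene strand overlapped for all 5 members. For PHAX they rested on 8, 11 and 5 counts in Clover and 5, 13 and 3 in Z18trunc, so a difference in intron RNA was not detectable at this depth.

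The wider cap pathway was described by 13 lists of genes around the members. Of its genes only ZC3H18 passed the adjustment. Without it, and with each gene counted once, 161 list genes were tested. By an unadjusted limma p under 0.05, 60 of them (37.3%) were higher and 1 lower, beside 25.6% and 2.9% of all genes, and 134 (83.2%) had a log2 change above 0, beside 68.0% of all genes. Their median was 0.21. After quantile normalization the median was 0.10, with 35 genes higher and 6 lower, and with the GC trend removed it was 0.07, with 30 of 160 higher and 6 lower, against medians of -0.01 and -0.00043 over all genes. A single list, the 45 replication-dependent histone genes, held 19 of the 60 higher genes. It held 15 of the 35 after quantile normalization and 19 of the 30 with the GC trend removed. The counts that follow use the same unadjusted threshold and are to be read against that 25.6%, or against 12.8% after quantile normalization and 7.91% with the GC trend removed.

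Among partners of the complex and of ARS2, leaving out ZC3H18 and the neighbour NCBP2AS2, 2 of 10 were higher, KPNA2 and KPNB1, and none was lower. After quantile normalization 2 of these genes were higher and none lower, and with the GC trend removed 1 was higher and 1 lower. KPNB1, the importin that carries the heterodimer into the nucleus together with KPNA2, had the largest change after ZC3H18, from 85.5 ± 6.17 to 119 ± 5.52 TPM (SD, n = 3 each), with a limma adjusted p of 0.0773. NELFB, a subunit of the pausing factor NELF, had the smallest, at -0.10. The median of these 10 genes was 0.06, below that of all genes.

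The exosome adaptors, to which ZC3H18 leads, had 4 of 6 genes higher and a median log2 change of 0.37. This was 0.20 with 2 genes higher after quantile normalization, and 0.09 with 1 higher when the GC trend was removed. Of these, ZFC3H1, the PAXT scaffold, was at 0.55 and ZC3H3 at -0.0042. On the export branch of PHAX, 4 of 11 genes for small nuclear RNA export and import were higher, with a median of 0.13, which was 0.0080 without Clover replicate 2, 0.197 without Z18trunc replicate 1 and 0.075 without Z18trunc replicate 2. After quantile normalization 1 gene of this list was higher, and with the GC trend removed 1 was higher and 2 lower. XPO1, the exportin that PHAX recruits, had the largest change there, from 72.2 ± 6.83 to 102 ± 8.24 TPM (SD, n = 3 each), or 0.49 on the log2 scale (limma adjusted p = 0.0773). GEMIN4, of the SMN complex, was at the other end with -0.14. Of 10 messenger RNA export adaptors none passed the unadjusted threshold, and their median was 0.05, or -0.06 with the GC trend removed.

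Among cap makers 3 of 7 were higher, with CMTR2, a cap methyltransferase, at 0.53. Of genes that remove the cap or degrade the RNA behind it 4 of 10 were higher, with XRN2, the nuclear 5′ to 3′ exonuclease, at 0.42 and DXO at -0.12. Of cytosolic cap readers 3 of 7 were higher, with EIF4G3 at 0.50 and EIF4EBP1 at -0.03. For Integrator, which cuts small nuclear RNA precursors, 5 of 14 were higher, with INTS8 at 0.44 and INTS9 at -0.12. For the histone 3′ end machinery it was 4 of 9, and for exon junction and decay factors 3 of 8, with SMG1 at 0.56. In microRNA processing 5 of 9 were higher and 1 lower, with AGO1 at 0.49 and TARBP2 at -0.20. Of microRNA host genes 3 of 14 were higher, with a median of 0.07, or -0.10 after quantile normalization.

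Most of these counts were smaller under the other scalings. In microRNA processing no gene was higher and 2 were lower after quantile normalization, and none was higher and 1 lower with the GC trend removed. For Integrator 5 were higher and 2 lower after quantile normalization, and none higher and 1 lower with the GC trend removed. With the GC trend removed none of the cap makers was higher, 1 gene each of the cap removers, the histone 3′ end machinery and the exon junction and decay factors, and 2 each of the cytosolic cap readers and the microRNA host genes.

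Replication-dependent histone genes, whose transcripts end in a stem-loop in place of a poly(A) tail and whose 3′ ends involve ARS2 and the cap-binding complex, had the highest median of the 13 lists. Of the 45 tested, 19 were higher and none lower by the unadjusted limma p, with a median log2 change of 0.42. Their median GC content was 58.2%, close to that of SRRT, and their median was 0.41 with the GC trend removed, with 19 of 45 higher. After quantile normalization it was 0.28, with 15 higher and 1 lower, and it was 0.32 when genes below 1 TPM were included. H3C8 had the largest change, from 3.16 ± 0.677 to 10.5 ± 1.77 TPM (SD, n = 3 each), a log2 change of 1.46 (limma adjusted p = 0.0753), and H4C5 the smallest at -0.34. Histone genes share long stretches of sequence, so the split of reads between copies is uncertain, and poly(A) selection leaves out their RNA without a tail.

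**Figure D5:**
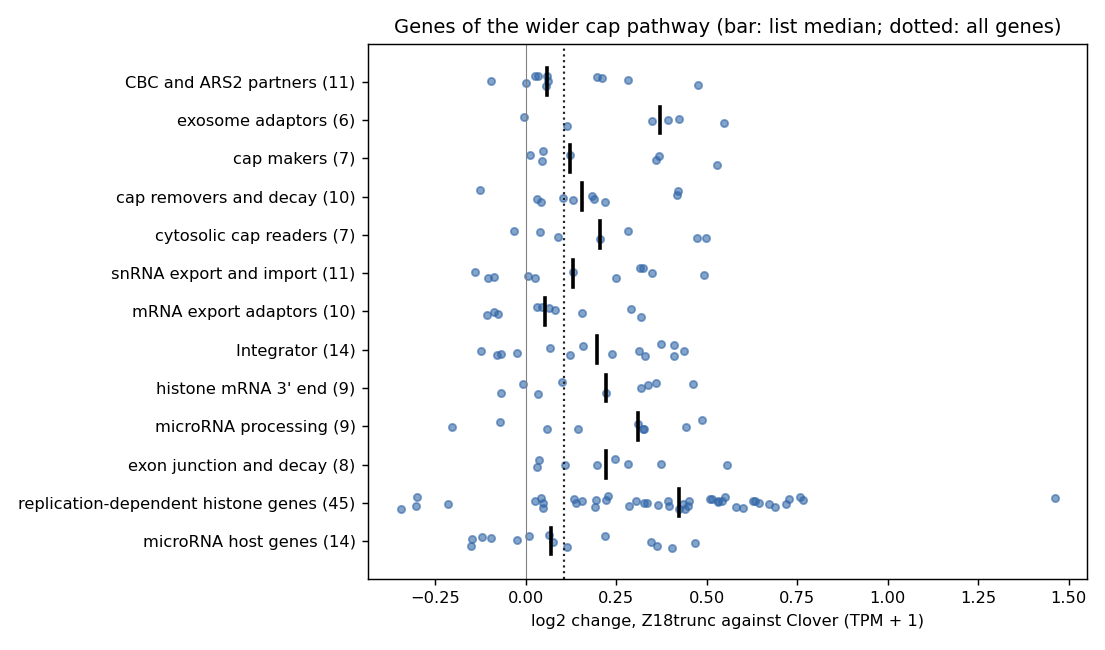
Log2 change of Z18trunc against Clover (x axis) of every tested gene in 13 lists (rows, with the number of genes in parentheses, ZC3H18 left out and NCBP2AS2 kept in the partner list). Points are genes, black bars list medians and the dotted line the median of all genes, 0.11. The histone genes have the highest list median and messenger RNA export adaptors the lowest.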

How the data were processed

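Stranded, poly(A)-selected paired-end libraries of 3 Clover and 3 Z18trunc SW480 lines were analysed, with groups and replicate numbers from the sample titles. The authors trimmed reads with cutadapt 4.6, mapped them to hg38 and ran SQuIRE. Per the file headers, the deposited gene tables are StringTie abundance tables with TPM, FPKM and coverage (signal) per base, and hold no counts. TPM was summed by symbol, and coverage served to show depth. The deposited TE tables give uniquely mapped counts and estimated counts per locus and strand, for which SQuIRE divides fragments that map to several loci by expectation maximization, and neither is normalized. FPKM values the authors deposited were not used.

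limma 3.58.1 was run on log2(TPM + 1) of genes averaging 1 TPM or more, a scale that understates changes of low genes. Rounded estimated counts went into edgeR 4.0.16 (quasi-likelihood F test, R 4.3.3), for loci of 4 classes with at least 30 counts, with aligned fragments as library size. Benjamini-Hochberg adjustment covered every feature of a fit, tests were two-sided, and calls were made at 0.05. Sums and ratios were compared with exact permutation tests. Both fits were tested on simulated data. The planted changes were larger than those of the members and of their TE loci, so the detection of changes as small as these was not tested. Samples with the same replicate number did not deviate together, so the main fits have no replicate block. The p-values measure the spread between these 3 lines per group.

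The members and lists were chosen with earlier results of these data known. Named genes were the members, ZC3H18, genes with the smallest or largest log2 change of a list, called genes, the 3 nearest profiles per member, overlapping genes and the 3 TE loci of smallest p inside members. KPNA2, NCBP2AS2 and NCBP2L, list genes outside that rule, are named for their relation to NCBP1 and NCBP2, chosen after their values were seen. Gene context came from the deposited spans and GENCODE 44. Alternatives were quantile normalization, other filters, another pseudocount, an intensity trend, DESeq2 1.42.0 for TE loci, uniquely mapped counts, a replicate block, leaving out each library and, added after the data were seen, removal of a GC trend.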

Additional observations from a re-analysis of the deposited data

How the results depend on the processing

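Of 505 alternative values, 458 were classed as the same, 1 passed the threshold, 12 changed sign and 34 moved without changing sign. Values classed as the same could still differ in size, and list medians have no threshold to cross. The median of the small nuclear RNA export and import list, 0.13 in the main fit, was classed as the same at 0.0080 without Clover replicate 2. No member was called under any alternative except PHAX, the 1 member called among genes averaging 5 TPM or more. Over all genes 2 were called, and 1 with quantile normalization, a pseudocount of 0.1, no filter or the replicate block, 474 with the filter at 5 TPM, 60 with an intensity trend, and 1 (without Z18trunc replicate 1) to 4 (without Clover replicate 2) when a library was left out. Of the list genes other than ZC3H18 none was called, but 11 were with the filter at 5 TPM and 4 with the intensity trend. Replicates with the same number did not deviate together (correlations -0.04, 0.02 and -0.04), and the replicate block called no member.

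Among the sign changes were 4 list medians: cap makers (-0.0097), cap removers (-0.0022) and microRNA host genes (-0.10) after quantile normalization, and messenger RNA export adaptors (-0.06) with the GC trend removed. Leaving out 1 library moved the median of 11 of 13 lists by over 1.5 times, the exceptions being the exosome adaptors and the histone genes. SRRT ranged from -0.0015 to 0.071 over the fits without 1 library. With the GC trend removed, the log2 ratios NCBP2/NCBP3 and NCBP2/SRRT differed by -0.018 and -0.0052. The exonic TE sum of NCBP2 differed by -0.984 when scaled to TE counts of both strands, in counts per 1000000 TE counts. Without 1 library, the intronic sums differed by -0.021 to 0.251 CPM for NCBP1 and by -0.212 to 0.073 CPM for PHAX, which was above 0 without Clover replicate 2 (0.054), Z18trunc replicate 1 (0.033) or Z18trunc replicate 3 (0.073). The cause of these changes was not tested. With 3 libraries a group, exact tests could not go below 0.1, and the intronic sums rest on few counts.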
